A study of Mus musculus with 24 samples.

Results

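Cytosolic ribosomal proteins are the protein parts of the ribosome that translates nuclear-encoded mRNA. Members were taken by symbol: genes whose symbol starts with Rpl or Rps and a number, together with Rpsa, Rplp0, Rplp1 and Rplp2, without the Rps6k kinases and without symbols that hold -ps. This gave 88 of the 24421 genes in the files, 53 named for the large subunit (Rpl) and 35 for the small subunit (Rps). The rule left out 7 symbols with -ps, which mark pseudogenes, and 10 Rps6k kinases. It also took in Rps19bp1, which encodes a protein that binds Rps19 and is not itself a subunit. Rps4l and Rpl37rt were members too, although their GENCODE M21 transcripts used here are annotated as processed transcripts, not as protein-coding.

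The samples were 24 hearts from chow-fed males aged 14 weeks, on a mixed background that was mostly C57BL/6N with some 129. Acadl encodes long-chain and Acadvl very long-chain acyl-CoA dehydrogenase, enzymes of the first step of mitochondrial fatty acid oxidation, and the series title concerns a defect of this pathway and the integrated stress response. The labels gave 5 libraries of Acadl KO / Acadvl Het, 4 of Acadl KO / Acadvl wt, 4 of Acadl Het / Acadvl KO, 3 of Acadl Het / Acadvl Het, 4 of Acadl Het / Acadvl wt and 4 of Acadl wt / Acadvl wt, which is called wild type here. The labels give 2 batches of RNA isolation, batch 1 with 9 libraries and batch 2 with 15. Whether each heart is from its own mouse is not labelled, and the p-values describe the spread among these libraries, which may be technical.

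Libraries held 34320838 to 51743114 counts each, and the 88 genes took 483129 to 824845 of them, or 1.20% to 1.78%. Levels are given as CPM, counts scaled to a common library total, with edgeR's TMM factors. Acadl was higher, not lower, under its KO label. It stood at 1697 to 2100 CPM in the 9 libraries labelled Acadl KO and at 1324 to 1625 CPM in the other 15. The design of the Acadl allele is not given, so this label could not be checked from the counts. Acadvl followed its label, at 494.7 to 733.8 CPM in the Acadvl KO libraries and at 1039 to 2429 CPM in all others. Acadl Het / Acadvl Het replicate 1 stood apart, with 17.3% of its counts in Rn45s, a ribosomal RNA precursor, against at most 0.558% in any other library. Cardiomyocyte markers summed to 71200 to 93400 CPM and all 9 were detected. Alb, a liver transcript, exceeded 10 CPM in 6 libraries, among them Acadl KO / Acadvl wt replicates 2 and 3 and all 3 of Acadl Het / Acadvl Het. In whole hearts, fewer cells of a type and less RNA per cell cannot be told apart.

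Each ribosome holds 1 copy of nearly every ribosomal protein, and cells usually make these proteins in step with each other. Their mRNAs begin with a terminal oligopyrimidine tract, which places their translation under mTOR and the binding protein Larp1, and several members have paralogs made in particular tissues. Rpl3l, for example, is a paralog of Rpl3 made in heart and skeletal muscle. RNA levels as measured here do not show how much of each mRNA was translated.

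Paralogs are shown first because reads of near-identical genes can be assigned to the wrong one. Over 789 aligned positions of the Rps4x coding sequence, Rps4l was identical at 79.7%. GENCODE M21 annotates Rps4l, on chromosome 6, as a transcribed processed pseudogene, and Rps4x, on chromosome X, as the protein-coding gene. The stretch of 90 bases shown, the one without a gap nearest the middle of the alignment, has 18 differing bases, in capitals.
Rps4l: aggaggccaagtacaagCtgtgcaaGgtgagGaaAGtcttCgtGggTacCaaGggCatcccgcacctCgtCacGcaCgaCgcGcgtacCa
Rps4x: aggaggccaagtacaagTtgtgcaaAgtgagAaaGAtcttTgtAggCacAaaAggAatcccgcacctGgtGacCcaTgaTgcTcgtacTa
Rpl3l, on chromosome 17, and Rpl3, on chromosome 15, were identical at 73.9% of aligned coding positions, and 27 of the 90 bases shown differ.
Rpl3l: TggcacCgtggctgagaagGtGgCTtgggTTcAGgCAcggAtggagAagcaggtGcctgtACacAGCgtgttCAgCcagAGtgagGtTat
Rpl3: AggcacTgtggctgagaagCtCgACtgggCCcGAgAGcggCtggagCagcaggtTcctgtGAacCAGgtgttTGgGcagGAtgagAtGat

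A window of 100 bases, the read length, was slid along 1 GENCODE M21 transcript of each member and looked up in the transcripts of all other genes. Rps4l shared 1.66% of its windows and Rpl3l shared 0.00%, whereas Rpl3 shared 79.4%, mostly with Rpl3-ps1, and Rps13 shared 77.6%, mostly with Rps13-ps2. Rpl10a shared 87.1%, mostly with Rpl10a-ps1, Rpl12 shared 46.8% and Rps28 shared 35.8%. In all, 32 of the 88 members shared over 50% of their windows and 9 shared 0. The look-up did not separate copies elsewhere in the genome from transcripts of other genes at the same locus. Primary alignments alone were counted, so levels of members with many windows shared with copies elsewhere are uncertain. Rps27 and Rps27rt shared 98.4% and 89.5%, and their counts describe nearly the same reads.

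Promoters, taken from RefSeq on GRCm38.p6, were held for 67 of the 88 members, from 250 bases before to 50 after the start. The letters CCGGAAG, a core bound by ETS factors, occurred on either strand in 26 of the 67 (38.8%) and in 9.93% of 27025 genes. CACGTG, an E-box bound by Myc, occurred in 8.96% of members and in 8.09% of all genes. TGATGCAA, a form of the element bound by Atf4, occurred in 0 of 67 and in 1.03% of all genes, and AAGATGGC, bound by Yy1, occurred in 8.96% of members and in 3.19% of all genes. Matches of different motifs shared bases in 0 of the 67 member promoters and in 2 of all 27025, and a match describes letters only. The window from 100 bases before to 20 after the start is printed for 3 of the members that changed most, and for Rps18, a member with a motif match, whose letters are in capitals.
Rps13, chr7:116334171-116334290, minus strand: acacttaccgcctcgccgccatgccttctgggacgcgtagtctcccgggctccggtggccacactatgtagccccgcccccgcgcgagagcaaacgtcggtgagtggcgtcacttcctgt
Rpl12, chr2:32961612-32961731, plus strand: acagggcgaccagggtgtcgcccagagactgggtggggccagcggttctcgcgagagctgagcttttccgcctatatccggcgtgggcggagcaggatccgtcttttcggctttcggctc
Rps28, chr17:33824543-33824662, minus strand: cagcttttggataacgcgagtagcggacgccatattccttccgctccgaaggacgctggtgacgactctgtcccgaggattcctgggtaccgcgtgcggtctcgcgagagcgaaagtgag
Rps18, chr17:33955646-33955765, minus strand: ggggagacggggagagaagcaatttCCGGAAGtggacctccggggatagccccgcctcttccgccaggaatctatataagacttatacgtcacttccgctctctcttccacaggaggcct

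Levels between genes were compared as CPM per kilobase of exon, averaged over the 24 libraries. Of the 88 members, 86 passed the filter on low counts. Both others were retrogene paralogs known from testis: Rpl10l had at most 1 count and Rpl39l at most 9 in any library. Over the 86 the median was 246.2 CPM per kb. The highest were Rplp1 at 843.4, Rps9 at 516.7, Rplp2 at 505.2 and Rplp0 at 497.3 CPM per kb. Rplp0, Rplp1 and Rplp2 form the stalk of the large subunit that recruits elongation factors. The lowest were Rps19bp1 at 8.15, Rpl7l1 at 17.1, Rpl37rt at 21.8, Rps4l at 24.2 and Rps15a at 26.0 CPM per kb. Rps15a was low on this scale because its annotated exons cover 5134 bases, while its level was 133.3 CPM. Rpl22l1, a paralog of Rpl22, stood at 52.2 CPM per kb, close to Rpl22 at 52.9. Without division by length the levels were 24.9 CPM for Rpl22l1, over 477 exon bases, and 132.1 CPM for Rpl22, over 2497.

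**Figure D1:**
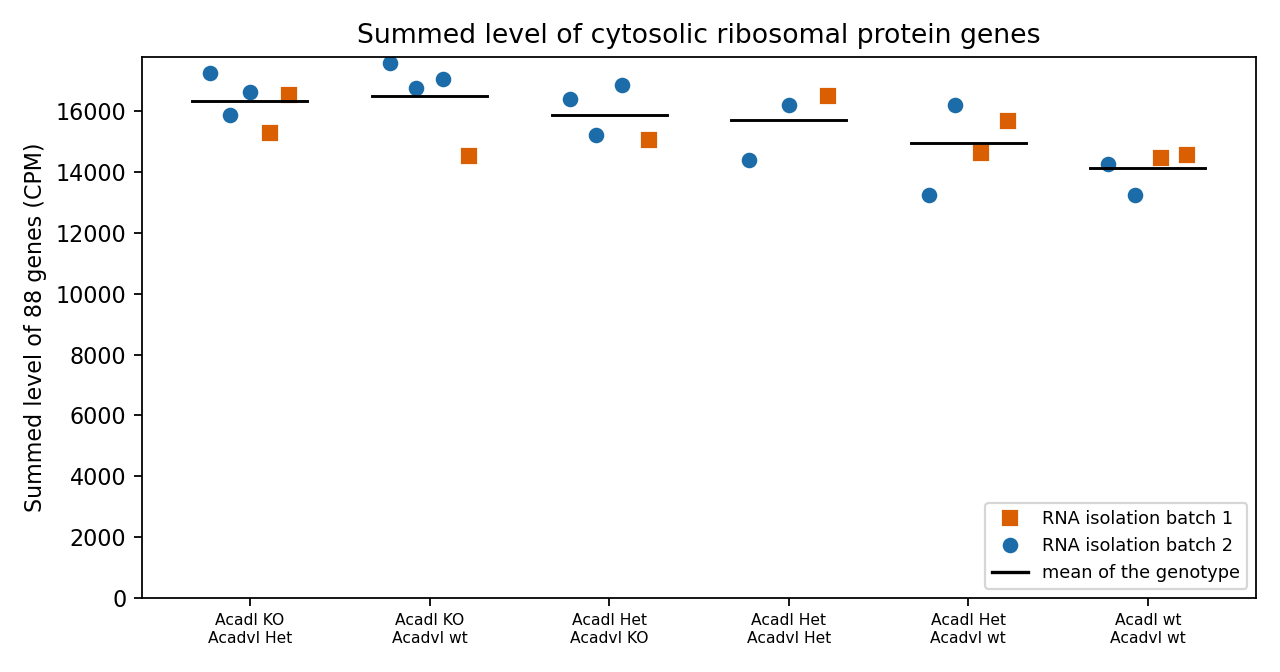
Summed level of the 88 ribosomal protein genes in CPM with TMM factors, 1 point per library, by genotype, with squares for RNA isolation batch 1, circles for batch 2 and a line at the mean of each genotype. The 3 Acadl KO / Acadvl wt libraries of batch 2 lie at 16771 to 17583 CPM, the one of batch 1 at 14531 CPM and the 4 wild-type libraries at 13261 to 14574 CPM.

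The summed level of all members was higher in libraries labelled Acadl KO / Acadvl wt than in wild type, and 3 of the 4 carried the difference. It was 17583, 16771, 17077 and 14531 CPM in Acadl KO / Acadvl wt replicates 1 to 4, against 14281, 13261, 14461 and 14574 CPM in wild type replicates 1 to 4. The groups overlapped, because Acadl KO / Acadvl wt replicate 4, its only library from RNA isolation batch 1, lay among the wild-type libraries. Means were 16328 ± 753.7 CPM (SD, n = 5) in Acadl KO / Acadvl Het, 16490 ± 1349 (n = 4) in Acadl KO / Acadvl wt, 15893 ± 886.2 (n = 4) in Acadl Het / Acadvl KO, 15708 ± 1157 (n = 3) in Acadl Het / Acadvl Het, 14950 ± 1308 (n = 4) in Acadl Het / Acadvl wt and 14144 ± 601.1 (n = 4) in wild type. Ordered by mean, neighbouring genotypes differed by less than the larger of their SDs.

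The size of that difference depended on the scaling. The ratio of Acadl KO / Acadvl wt to wild type was 1.17 in CPM with TMM factors and 1.07 as a share of raw counts. The members took 1.59% ± 0.11 (SD, n = 4) of raw counts in Acadl KO / Acadvl wt and 1.49% ± 0.056 (SD, n = 4) in wild type, and these ranges overlapped. TMM factors ran from 0.904 to 1.016 in Acadl KO / Acadvl wt and from 1.032 to 1.063 in wild type, so division by them raised the first group relative to the second.

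Single genes were tested with edgeR's quasi-likelihood test, with genotype and batch as terms and Benjamini-Hochberg adjustment over the 15804 genes tested, and are called at an adjusted p under 0.05. In Acadl KO / Acadvl wt against wild type, 45 of the 86 members rose and 0 fell, or 52.3%. Over all genes tested 37.2% were called in that comparison, 19.6% as higher and 17.6% as lower. The median log2 change was 0.20 over the members and -0.02 over all genes, and 85 of the 86 members had a positive value. By symbol, 27 of 51 tested Rpl members rose and 18 of 35 Rps members, the latter with Rps4l and Rps19bp1 among them. Scaled by library totals without TMM factors, 10 members were called, the median was 0.09 and that of all genes -0.13. A change of scaling shifts all genes by about the same amount. The members' distance from the median of all genes was therefore about equal on both scales by construction, and is no check on either scale.

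**Figure D2:**
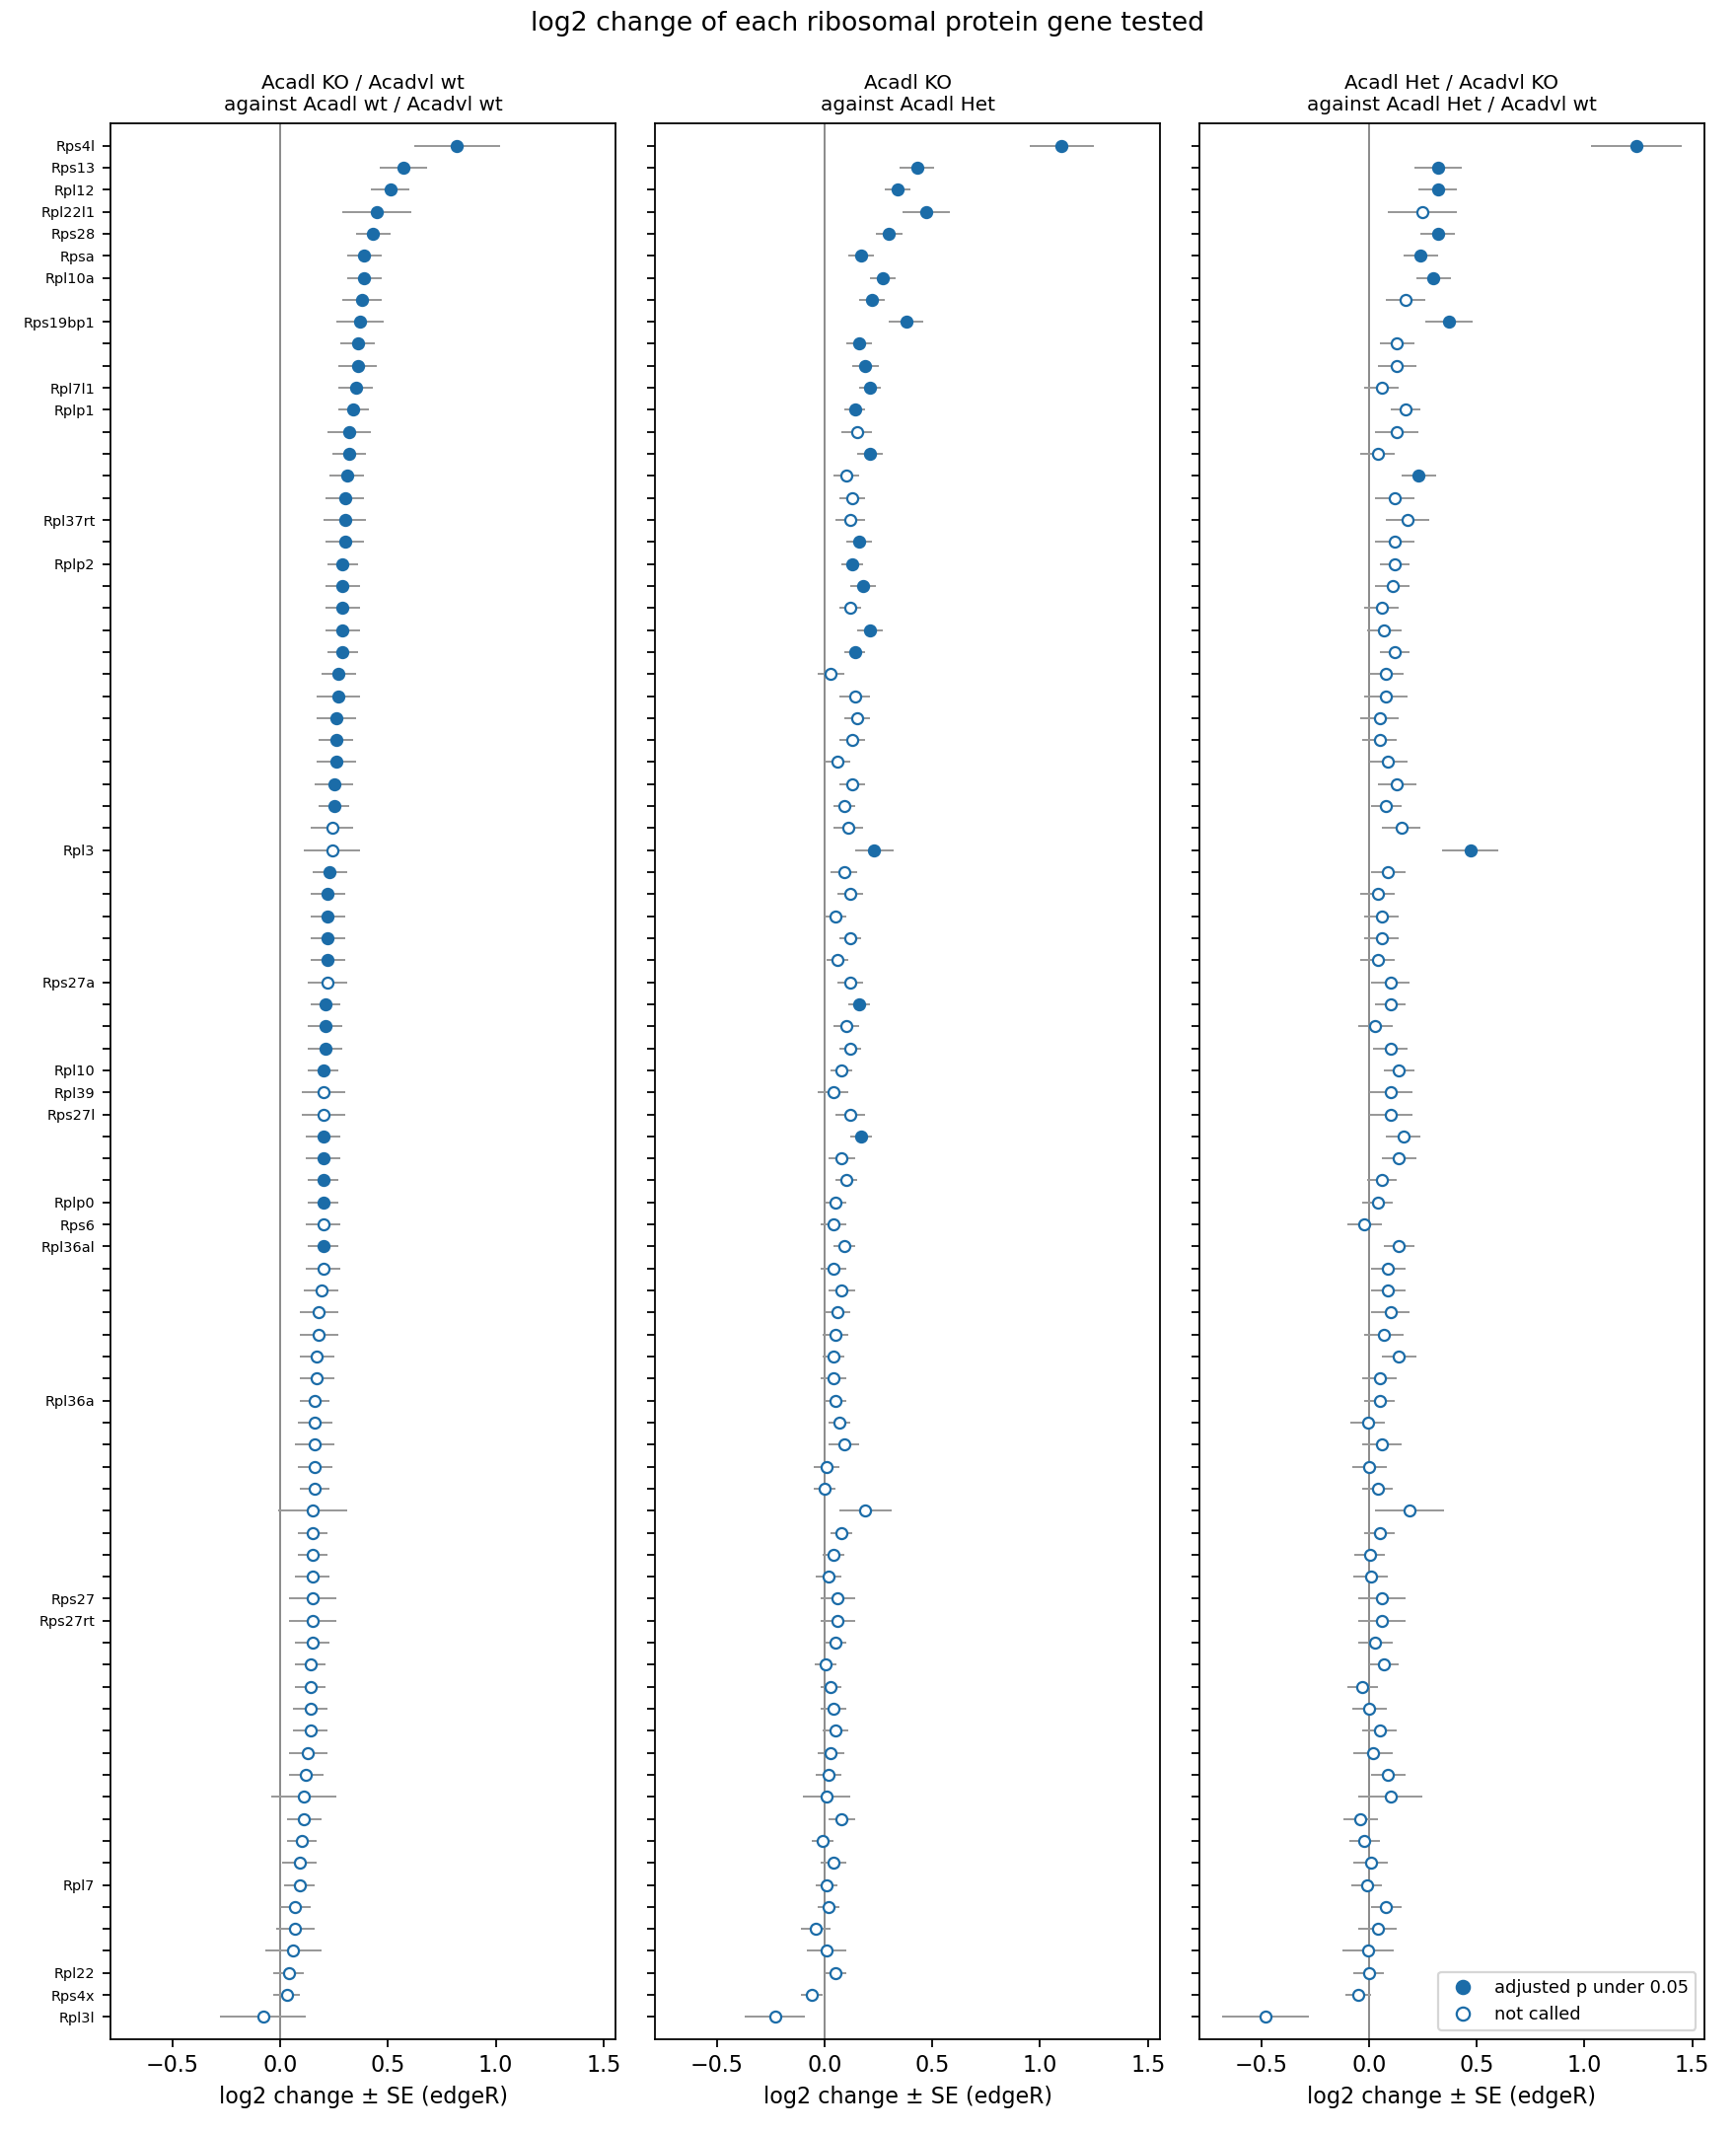
log2 change ± SE of the 86 members tested (rows, ordered by the first panel, with names for a subset that includes the paralogs and the most changed members) in 3 comparisons, with filled points for an edgeR adjusted p under 0.05. In the first panel values run from -0.08 to 0.82 with 45 filled points, and Rps4l has the highest value in all 3 panels.

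Rps4l (mm10 chromosome 6, 148354656 to 148355596, plus strand) had the largest rise. It stood at 29.4, 34.8, 21.6 and 21.4 CPM in Acadl KO / Acadvl wt replicates 1 to 4, against 17.2, 13.9, 14.1 and 13.9 CPM in wild type replicates 1 to 4. The groups did not overlap, and replicate 4 of batch 1 was higher than every wild-type library too. Its log2 change of 0.82 ± 0.20 (SE) had an adjusted p of 0.00358 in edgeR. Rps4x, its protein-coding counterpart, averaged 251.1 ± 14.4 CPM in Acadl KO / Acadvl wt and 245.2 ± 7.73 CPM in wild type (SD, n = 4 each), and its log2 change of 0.03 ± 0.06 (SE) was not called.

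Among the next largest rises were Rps13 (chromosome 7, 116331507 to 116334190) and Rps28 (chromosome 17, 33823037 to 33824498) of the small subunit. Rpl12 (chromosome 2, 32961712 to 32964045) and Rpl10a (chromosome 17, 28328471 to 28331033) belong to the large subunit. Rps13 stood at 204.4, 205.9, 174.6 and 154.8 CPM in Acadl KO / Acadvl wt, against 123.6, 117.8, 129.7 and 126.3 CPM in wild type, which is 0.57 ± 0.11 (SE) in log2 change, with an adjusted p of 0.000338 in edgeR. Rpl12, at the base of the stalk, stood at 252.1, 218.8, 230.4 and 182.2 CPM in Acadl KO / Acadvl wt, against 159.3, 146.9, 151.7 and 151.1 CPM in wild type, which is 0.51 ± 0.09 (SE) in log2 change, with an adjusted p of 0.000127 in edgeR. For both genes all 4 libraries labelled Acadl KO / Acadvl wt were above all 4 of wild type, and the lowest of them was replicate 4. Rps28 stood at 97.2, 88.4, 86.2 and 76.7 CPM in Acadl KO / Acadvl wt, against 60.3, 58.9, 70.8 and 68.5 CPM in wild type (log2 change 0.43). Rpl10a stood at 170.6, 159.8, 160.4 and 133.7 CPM in Acadl KO / Acadvl wt, against 117.9, 110.5, 121.1 and 124.0 CPM in wild type (log2 change 0.39). Neither gene's groups overlapped. These 5 genes were called under library totals as well, with log2 changes of 0.70 for Rps4l, 0.45 for Rps13, 0.40 for Rpl12, 0.32 for Rps28 and 0.27 for Rpl10a.

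**Figure D3:**
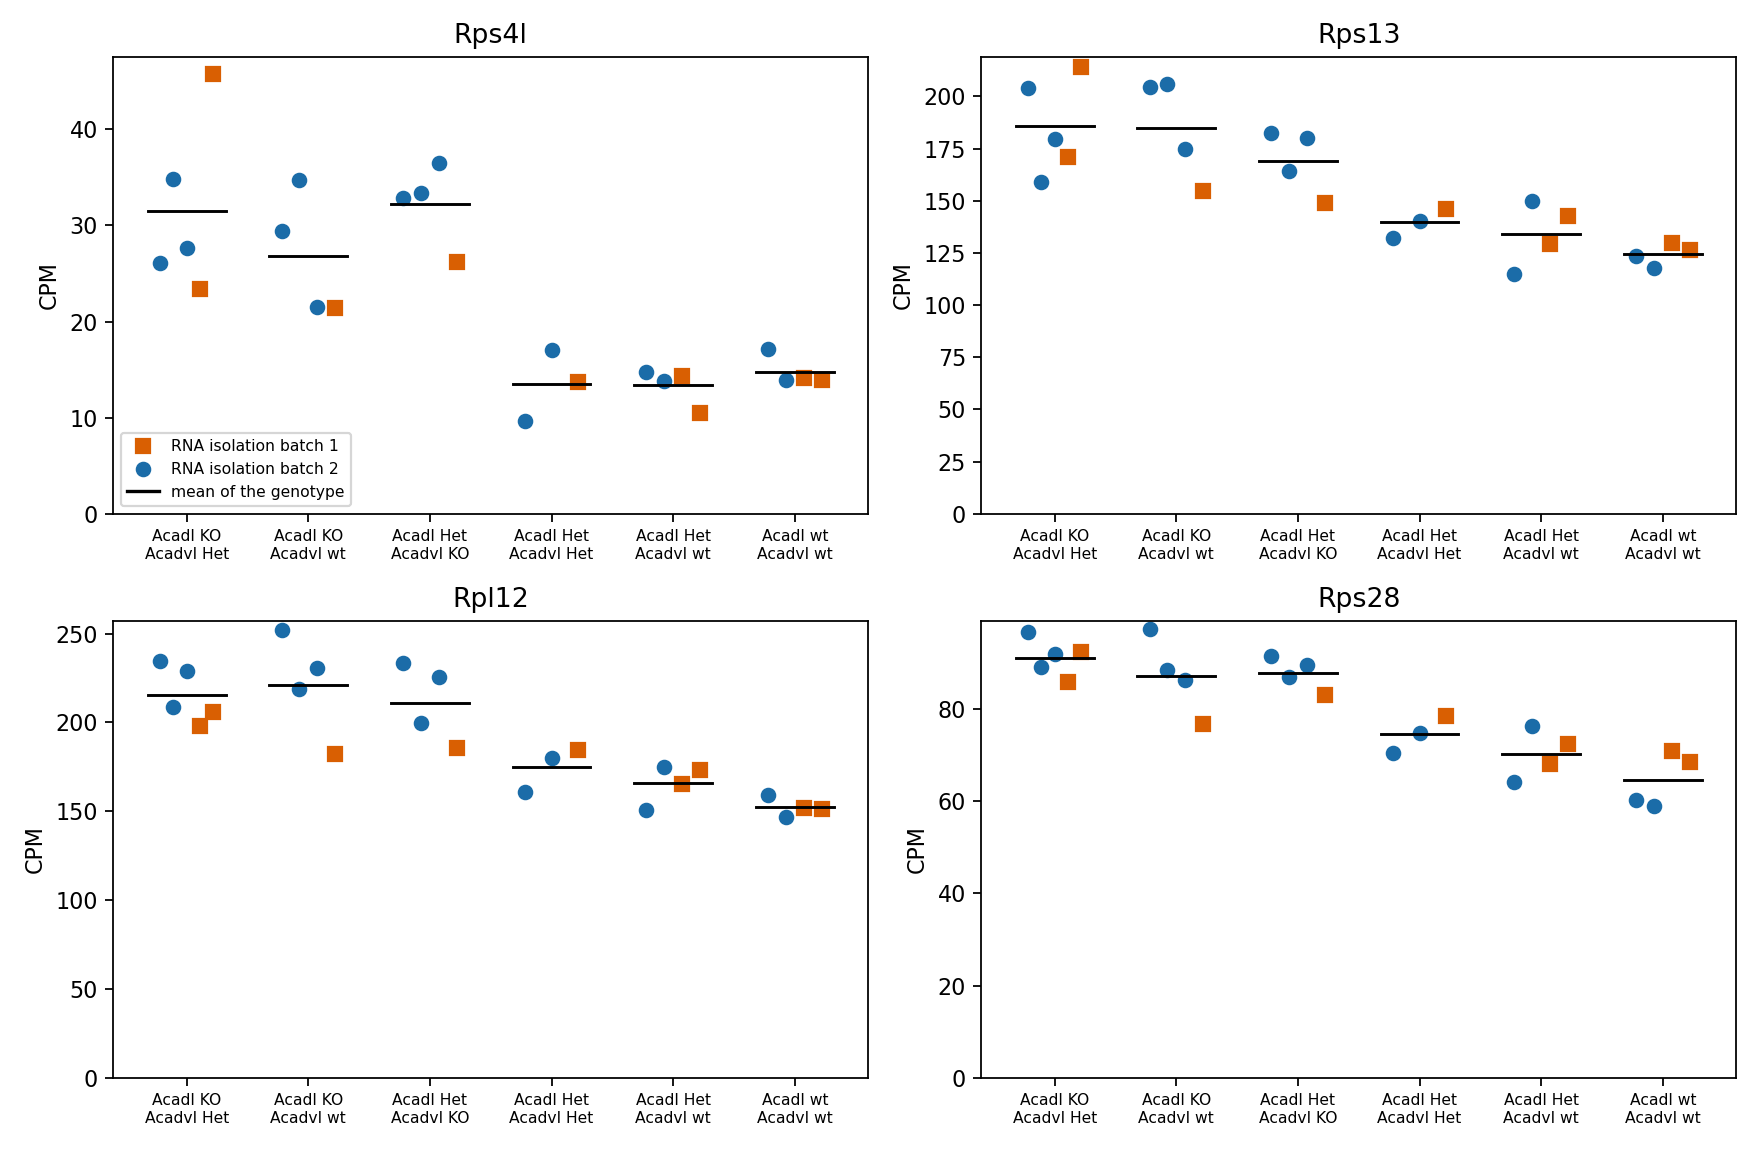
CPM of Rps4l, Rps13, Rpl12 and Rps28, 1 point per library, by genotype, with squares for RNA isolation batch 1, circles for batch 2 and a line at each genotype's mean. Rps4l lies at 21.4 to 45.8 CPM in the 3 genotypes with a KO label and at 9.64 to 17.2 CPM in the 3 without.

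Other members that rose in this comparison had smaller changes. Rpsa, the laminin receptor precursor of the small subunit, rose by 0.39 ± 0.08 on the log2 scale (SE), Rplp1 by 0.34 ± 0.07, Rplp2 by 0.29 ± 0.07 and Rplp0 by 0.20 ± 0.07. Of the last 3, Rplp1 alone was called under library totals. Rps6, the subunit phosphorylated by the S6 kinases, had a log2 change of 0.20 and an edgeR adjusted p of 0.0548, and Rps27a, which is fused to ubiquitin, had 0.22 and 0.0518, so neither was called. Rpl22l1 rose by 0.45 ± 0.16, but was called in 4 of the 8 fits that each left out 1 library, and Rpl22 had a log2 change of 0.04. Rps19bp1 rose by 0.37 ± 0.11 and Rpl7l1, a distant relative of Rpl7 identical at 56.4% of aligned positions, by 0.35 ± 0.08. The groups did not overlap and were higher in Acadl KO / Acadvl wt for 31 of the 86 members (36.0%) and for 18.1% of all genes.

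The result differed between RNA isolation batches. In batch 2, with 3 Acadl KO / Acadvl wt and 2 wild-type libraries, 48 members rose, while 28.6% of all genes were called in either direction, and the members' median log2 change was 0.32. In batch 1, with 1 against 2 libraries, 0 of 86 members were called by edgeR, 3 had an unadjusted p under 0.05, 42 had a positive value and the median was -0.01. Only 0.534% of all genes were called in batch 1, so few calls could be made there, but the median did not depend on calls. Within batch 1 the log2 change was 0.62 for Rps4l, 0.34 for Rpl7l1, 0.28 for Rps13, 0.27 for Rpl12 and 0.15 for Rps28. It was -0.04 for Rps9, -0.03 for Rplp0 and Rps19bp1 and -0.01 for Rpl37rt. With 1 Acadl KO / Acadvl wt library in batch 1, that library and the batch cannot be told apart.

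**Figure D4:**
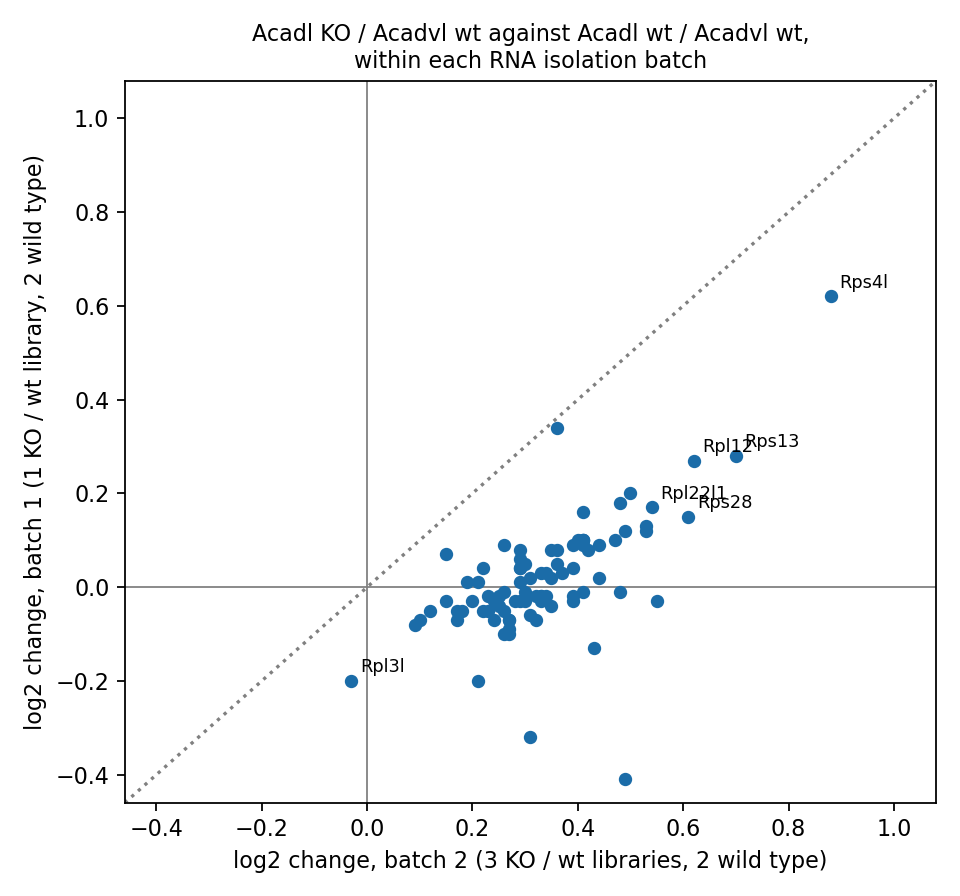
log2 change of each of the 86 members in Acadl KO / Acadvl wt against wild type within RNA isolation batch 2 (horizontal axis) and within batch 1 (vertical axis), with a dotted line where both are equal. Values in batch 2 lie mostly above 0 with a median of 0.32, those in batch 1 on both sides of 0 with a median of -0.01, and Rps4l, Rps13 and Rpl12 are above 0 in both.

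Single libraries moved the count. It was 62 without Acadl KO / Acadvl wt replicate 4, 26 without Acadl KO / Acadvl wt replicate 1 and 21 without wild type replicate 2, the library with the lowest sum of its genotype. Hepatocyte markers summed to 17.8 to 135.0 CPM in Acadl KO / Acadvl wt and to 14.0 to 24.2 CPM in wild type, with 0 of the 7 markers at 0 throughout. Erythroid markers summed to 1060 to 2630 CPM in Acadl KO / Acadvl wt and to 900.0 to 1250 CPM in wild type, and their part in the counts was not tested. Without the libraries above 10 CPM of Alb, 14 members were called and the median log2 change was 0.18.

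The next comparison set Acadl KO, as labelled, against Acadl Het, averaged over the Acadvl wt and Acadvl Het backgrounds. Here 22 of the 86 members rose and 0 fell (25.6%), while 54.7% of all genes were called, 26.7% as higher, so the members' share of rises was near the background. The median log2 change was 0.09 over the members. Rps4l rose by 1.10 ± 0.15 in log2 (SE; adjusted p of 4.26e-06 in edgeR), Rpl22l1 by 0.47 ± 0.11, Rps13 by 0.43 ± 0.08, Rps19bp1 by 0.38 ± 0.08, Rpl12 by 0.34 ± 0.06 and Rps28 by 0.30 ± 0.06. Rps4l stood at 26.1, 34.8, 27.7, 23.4 and 45.8 CPM in Acadl KO / Acadvl Het replicates 1 to 5, against 9.64, 17.1 and 13.7 CPM in Acadl Het / Acadvl Het and 14.8, 13.9, 14.3 and 10.5 CPM in Acadl Het / Acadvl wt. The 9 libraries labelled Acadl KO lay above all 7 Acadl Het libraries for 2 of the 86 members, Rps4l and Rps13, and for 10.4% of all genes; they lay below for 0 members and for 7.92% of all genes. Within batch 1, 1 member was called, Rps4l with a log2 change of 1.06, against 13.1% of all genes, and the members' median was -0.05. Within batch 2, 31 were called with a median of 0.17, against 45.0% of all genes called. The count was 35 without Acadl KO / Acadvl wt replicate 4. Under library totals 7 were called: Rps4l, Rpl22l1, Rps13, Rps19bp1, Rpl12, Rps28 and Rpl10a.

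Another comparison set Acadl Het / Acadvl KO against Acadl Het / Acadvl wt, which differ in the Acadvl label. Here 9 of the 86 members rose and 0 fell (10.5%). Over all genes 24.4% were called in this comparison, 12.9% as higher, so the members' share was again near the background. Rps4l stood at 32.9, 33.4, 36.5 and 26.2 CPM in Acadl Het / Acadvl KO, against 14.8, 13.9, 14.3 and 10.5 CPM in Acadl Het / Acadvl wt, which is 1.24 ± 0.21 (SE) in log2 change, with an adjusted p of 0.000197 in edgeR. The groups did not overlap. The other 8 were Rpl3, Rps19bp1, Rps28, Rpl12, Rps13, Rpl10a, Rpsa and Rps12, with log2 changes of 0.23 to 0.47. Rps13 stood at 182.3, 164.4, 179.8 and 148.7 CPM in Acadl Het / Acadvl KO, against 114.9, 150.0, 129.2 and 142.6 CPM in Acadl Het / Acadvl wt, so its groups overlapped. Within batch 1, with 1 against 2 libraries, 0 members were called by edgeR and 4 had an unadjusted p under 0.05, while 1.29% of all genes were called. Within batch 2, 6 were called, against 16.7% of all genes. This comparison shares the Acadl Het / Acadvl wt libraries with the preceding one, and that one shares the Acadl KO / Acadvl wt libraries with the comparison to wild type.

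Taking all 13 libraries with a KO label of either gene against the 11 without one, the groups did not overlap for Rps4l alone among the 86 members, higher with a KO label, as for 4.97% of all genes; 0 members and 3.59% of all genes were lower. Within batch 1, with 4 against 5 libraries, this held for Rps4l, Rps13 and Rps27l, and for 9.90% of all genes. Within batch 2, with 9 against 6 libraries, it held for 12 of the 86 members, or 14.0%, and for 10.5% of all genes, while 0 members and 8.92% of all genes were lower. As a share of the summed CPM of both genes, Rps4l made up 7.47% to 15.6% of Rps4l and Rps4x in libraries with a KO label and 3.64% to 6.36% in those without.

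In Acadl Het / Acadvl KO Rpl3 (chromosome 15, 80077781 to 80083406) rose, and its muscle paralog Rpl3l (chromosome 17, 24727829 to 24736149) had a negative change that was not called. Rpl3 stood at 208.8, 180.9, 186.9 and 174.0 CPM in Acadl Het / Acadvl KO, against 135.2, 128.6, 134.2 and 129.0 CPM in Acadl Het / Acadvl wt, and rose by 0.47 ± 0.13 in log2 (SE; adjusted p of 0.00972 in edgeR). Rpl3l stood at 205.7, 199.2, 197.8 and 190.1 CPM in Acadl Het / Acadvl KO, against 241.9, 320.2, 257.6 and 300.1 CPM in Acadl Het / Acadvl wt. The groups did not overlap for either gene, but the log2 change of Rpl3l, -0.48 ± 0.20 (SE), had an edgeR adjusted p of 0.0856 and was not called. Leukocyte markers summed to 164.0 to 345.0 CPM in Acadl Het / Acadvl KO and to 154.0 to 176.0 CPM in Acadl Het / Acadvl wt. Fibroblast markers summed to 778.0 to 1400 CPM in Acadl Het / Acadvl KO and to 789.0 to 962.0 CPM in Acadl Het / Acadvl wt. Skeletal muscle markers summed to 2790 to 3240 CPM in Acadl Het / Acadvl KO and to 2290 to 2710 CPM in Acadl Het / Acadvl wt. Wild type, at 2430 to 3020 CPM, overlapped both. These markers were Acta1, Ckm, Myh1, Myh2, Myh4 and Tnnt3, and which of them made up the sum was not examined. No marker of the 3 lists, of 7, 5 and 6 genes, was at 0 throughout Acadl Het / Acadvl KO or Acadl Het / Acadvl wt. The part of the markers in the values of Rpl3 and Rpl3l was not tested. No other member was lower in Acadl Het / Acadvl KO without overlap, while 11.7% of all genes were. Rpl3 was among 9 of the 86 members (10.5%) that were higher without overlap, near the 11.7% of all genes. Per kilobase, the ratio of Rpl3 to Rpl3l was 1.06 to 1.19 in Acadl Het / Acadvl KO and 0.471 to 0.655 in Acadl Het / Acadvl wt, with wild type at 0.488 to 0.595.

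**Figure D5:**
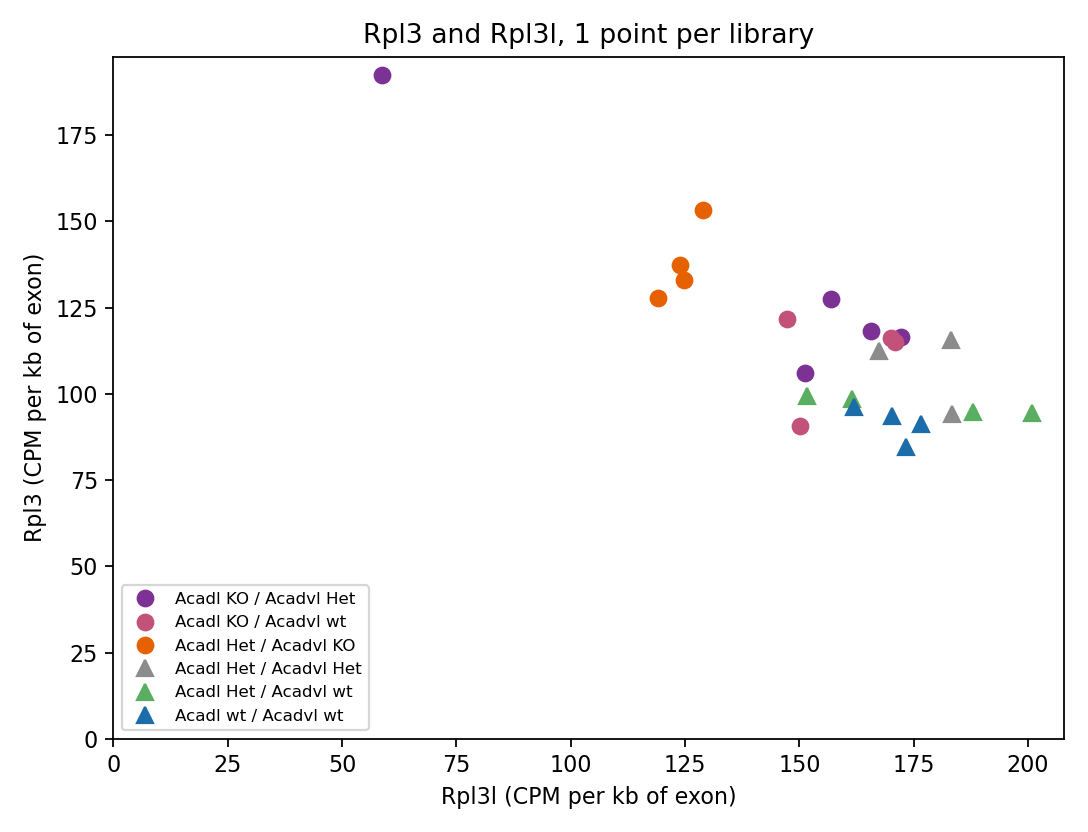
CPM per kilobase of exon of Rpl3l (horizontal axis) and Rpl3 (vertical axis), 1 point per library, with circles for genotypes with a KO label and triangles for those without. The 4 Acadl Het / Acadvl KO libraries lie apart at 119.2 to 129.0 of Rpl3l and 127.8 to 153.4 of Rpl3, and 1 Acadl KO / Acadvl Het library lies farthest out at 58.7 and 192.4.

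In libraries labelled Acadl KO the ratio was 0.605 to 0.825 in Acadl KO / Acadvl wt and, leaving out replicate 2, 0.677 to 0.812 in Acadl KO / Acadvl Het. Rpl3 had a log2 change of 0.24 ± 0.13 (SE) in Acadl KO / Acadvl wt against wild type, not called, and -0.02 within batch 1. In Acadl KO against Acadl Het it was called, with 0.23 ± 0.09 (SE) and an edgeR adjusted p of 0.0422. There it was called in 10 of the 16 fits that each left out 1 library, but not under library totals. Its log2 change in that comparison was -0.07 within batch 1 and 0.39 within batch 2. Set directly against each other, Acadl KO / Acadvl wt had a log2 change of -0.32 ± 0.13 (SE) for Rpl3 and 0.36 ± 0.20 for Rpl3l relative to Acadl Het / Acadvl KO. The libraries of these genotypes did not overlap for either gene, but the share of all genes without overlap was not counted for this comparison. The edgeR adjusted p values were 0.144 and 0.291 and neither gene was called. Acadl KO / Acadvl Het replicate 2 had 261.8 CPM of Rpl3 and 93.7 CPM of Rpl3l, a ratio of 3.28.

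Besides the pairs already described, Rps27l had a log2 change of 0.20 and Rps27 of 0.15 in Acadl KO / Acadvl wt against wild type, neither called. Rpl36al rose by 0.20 ± 0.07 (SE) and Rpl36a had 0.16, with edgeR adjusted p values of 0.0431 and 0.0968. Rpl39 had a log2 change of 0.20, not called, while Rpl39l was not tested.

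The 4 other comparisons gave no called member. In Acadl KO / Acadvl wt against Acadl Het / Acadvl KO, edgeR and DESeq2 called 0 of 86, with 3 at an unadjusted p under 0.05, while edgeR called 4.43% of all genes, 1.77% as higher and 2.66% as lower. In Acadl KO / Acadvl Het against Acadl KO / Acadvl wt, both tools called 0, with 1 at an unadjusted p under 0.05, and edgeR called 0.00% of all genes. In Acadl Het / Acadvl wt against wild type, both tools called 0, with 0 at an unadjusted p under 0.05, and edgeR called 0.00% of all genes. Its median log2 change was 0.08 and 82 of 86 members had a positive value. In Acadl Het / Acadvl Het against Acadl Het / Acadvl wt, both tools called 0, with 0 at an unadjusted p under 0.05, and edgeR called 0.00633% of all genes; the median was 0.06, and -0.03 under library totals. Over any of the 6 genotypes, 24 of 86 members were called (27.9%), against 51.1% of all genes; there were 8 under library totals and 39 without Acadl KO / Acadvl wt replicate 4.

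Genes that act with the ribosomal proteins were described from lists, whose counts stand against 19.6%, 26.7% and 12.9% of all genes called as higher in the same 3 comparisons, and 17.6%, 27.9% and 11.5% as lower. Of 40 nucleolar genes of ribosome assembly, 35 rose and 0 fell in Acadl KO / Acadvl wt against wild type (median log2 change 0.71), 35 rose in libraries labelled Acadl KO against Acadl Het (0.56) and 30 rose in Acadl Het / Acadvl KO against Acadl Het / Acadvl wt (0.41). In these 3 comparisons Rrp12, needed for the export of both subunits, rose by 1.60, 1.48 and 1.36 on the log2 scale. Under library totals 32, 35 and 27 of the 40 rose. The median of this list was thus above that of the ribosomal proteins in each comparison. Rescaling shifts both lists together, so this order is the same on either scale by construction.

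Of 10 dedicated chaperones and carriers of ribosomal proteins, 6, 8 and 4 rose in the same 3 comparisons and 0 fell. Grwd1, which carries Rpl3, rose by 1.23, 0.97 and 0.79, and Ltv1, of the small subunit, by 0.93, 0.62 and 0.59. Under library totals 4, 6 and 4 rose. Of 44 translation factors, 26, 28 and 13 rose and 0 fell, and under library totals 13, 23 and 14 rose and 0, 1 and 0 fell. Eif4a1, the helicase of the cap-binding complex, rose by 1.12, 0.93 and 0.69.

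Of 21 regulators linked to ribosomal protein mRNAs, 10 rose and 2 fell in Acadl KO / Acadvl wt against wild type, 13 and 2 in Acadl KO against Acadl Het, and 6 and 1 in Acadl Het / Acadvl KO against Acadl Het / Acadvl wt. Myc rose by 2.24, 1.46 and 1.54 and Mtor by 1.36, 1.43 and 1.23 on the log2 scale, and Mycn fell by 0.86 and 1.27 in the first 2. In the last, Mycn had -0.86 with an edgeR adjusted p of 0.0506 and was not called. Of 13 genes of ribosome surveillance, 9, 10 and 6 rose and 1 fell in each, and under library totals 6, 10 and 6 rose. Nufip1, linked to the degradation of ribosomes, rose by 0.87, 1.01 and 0.81, and Zak, the kinase that senses collided ribosomes, fell by 0.47, 0.46 and 0.51.

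Of the 77 mitochondrial ribosomal protein genes, 34 rose and 5 fell in Acadl KO / Acadvl wt against wild type, 36 and 8 in Acadl KO against Acadl Het, and 13 and 9 in Acadl Het / Acadvl KO against Acadl Het / Acadvl wt. In the last comparison both counts were near the share over all genes. Under library totals 17, 29 and 10 rose and 7, 11 and 6 fell. Among ribosomal proteins under other symbols, Gnb2l1, the older symbol of Rack1 on the small subunit, rose by 0.37, 0.21 and 0.24. Under library totals it was called in the first of these comparisons alone. Fau was not called in any of the 3, with 0.16 in the first.

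The members nearest to the targeted genes were Rpl26, 1.11 Mb from Acadvl on chromosome 11, and Rpl37a, 5.85 Mb from Acadl on chromosome 1. In Acadl KO / Acadvl wt against wild type, Rpl26 rose by 0.22 ± 0.08 (SE) with an edgeR adjusted p of 0.0251, and Rpl37a had 0.17, not called. Both groups of that comparison carry the Acadvl wt label, so they do not differ by label at the gene near Rpl26. Neither was called in Acadl KO against Acadl Het or in Acadl Het / Acadvl KO against Acadl Het / Acadvl wt. In the latter, where the Acadvl label differs, Rpl26 had a log2 change of 0.04.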

How the data were processed

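The authors deposited raw read counts per gene, 1 file per heart library. Per the file headers, single-end reads overlapping exons were counted with featureCounts 1.5.2 on UCSC mm10 genes, from primary alignments, without strand and for every gene overlapped. Per the submitters' processing notes, the tools were featureCounts 1.5.3 and STAR 2.5.1b. Since strand was not used, reads of antisense partners cannot be separated. The table of the whole series was not used.

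Counts were fitted in edgeR 4.0.16 (R 4.3.3; filterByExpr, TMM factors, robust quasi-likelihood fit) over all 24 libraries, modelling genotype and isolation batch. The 15804 genes passing the filter were tested two-sided with Benjamini-Hochberg adjustment. DESeq2 1.42.0 was an alternative. SEs come from the F statistic. CPM uses TMM-scaled totals. The edgeR test was tested on simulated counts. The 37 library pairs of 1 genotype had a chi-square of at least 14.9 for each degree of freedom, and each library was kept as a sample.

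The members and lists were chosen with earlier results of these data known. Named genes are paralog pairs, the highest and lowest per kilobase, Rplp0, Rplp1, Rplp2, Rps6, Rpsa, Rack1, Fau and Rps27a, up to 6 called members each way per comparison, members with a library far from its genotype, and up to 4 called genes of each other list. Rps12, Rps18, Rpl26 and Rpl37a lie outside the rule and were chosen after their values were seen. Some genes that the rule takes are not reported here.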

Additional observations from a re-analysis of the deposited data

Results flagged for a closer look

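These are libraries whose gap to the nearest other of their genotype, over the range, passed Dixon's 95% critical value. Of 430 tests over 86 members and 5 genotypes, 25 passed (5.81%), near the share of about 1 in 20 that chance gives, and 9 of the 25 lay in Acadl KO / Acadvl wt replicate 4. Those on named members follow.

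In Acadl KO / Acadvl Het, replicate 2 had 261.8 CPM of Rpl3, against 144.3 to 173.5 CPM in the other 4 libraries, and 93.7 CPM of Rpl3l, against 241.2 to 274.7 CPM. In the same library 7 of the 77 mitochondrial ribosomal protein genes lay above the mean of the genotype. Replicate 4 of this genotype had the lowest Rplp0, at 659.2 CPM against 707.8 to 720.2 CPM in the others. It also had 87.5 CPM of Rps27 and 86.7 CPM of Rps27rt, genes that share reads, against lowest values in the others of 106.0 and 104.9 CPM.

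Acadl KO / Acadvl wt replicate 4 had 44.1 CPM of Rpl36a, against 53.0 to 54.6 CPM in the other 3. In this library 85 of 86 members lay below the mean of the genotype, with a median deviation of -0.18 on the log2 scale. Wild type replicate 1 had 17.2 CPM of Rps4l, against 13.9 to 14.1 CPM in the other 3. Wild type replicate 2 had 299.8 CPM of Rps9, against 336.4 to 340.3 CPM, and 204.5 CPM of Rpl10, against 223.6 to 226.8 CPM.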

How the results depend on the processing

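Library totals without TMM factors, and a fit of Acadl KO without Alb-rich libraries, were chosen after seeing the data. Counts of called members are given for Acadl KO / Acadvl wt against wild type (45), Acadl KO against Acadl Het (22), Acadl Het / Acadvl KO against Acadl Het / Acadvl wt (9) and any genotype (24). Within batch 1 they were 0, 1, 0 and 0. Under library totals they were 10, 7, 6 and 8. Without libraries above 10 CPM of Alb the first was 14; the second could be fitted only against Acadl Het / Acadvl wt alone, which gave 17, since all Acadl Het / Acadvl Het libraries exceed that level. With DESeq2 they were 50, 26, 9 and 33. With 1 library left out they ran from 21 to 62, 15 to 35, 6 to 10 and 20 to 39. For Acadl KO / Acadvl wt against Acadl Het / Acadvl KO this range was 0 to 1. The summed level ratio of 1.17 was 1.07 as a share of raw counts, with or without Rn45s, 1.00 within batch 1 and 1.14 to 1.21 with 1 library left out. Within batch 1 some directions turned. Against wild type the log2 change was -0.02 for Rpl3, -0.01 for Rpl37rt, -0.03 for Rplp0, -0.03 for Rps19bp1 and -0.04 for Rps9. Against Acadl Het it was -0.07 for Rpl3, -0.01 for Rplp1 and -0.004 for Rpsa. The cause was not tested. No paired analysis was possible because the replicate numbers were given in accession order and pair no libraries. A lone library in a batch is assumed to vary like the others. Batch 1 holds 9 libraries and few calls can be made within it.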
